A study of Saccharomyces cerevisiae with 6 samples.

Results

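P5 is the parent strain of the series, a commercial wine yeast (Saccharomyces cerevisiae), and its transcriptome at 12 °C was read on 3 arrays out of 6 in the series, those labelled P5. RNA was taken from 3 independently cultured replicates in the exponential phase of a fermentation of synthetic must, at 96 h by the study's methods. The must, SM1, is a chemically defined grape juice with 2 mg/L of inositol, and the series has no array of P5 at another temperature, time or medium. The remaining arrays belong to P5-EM, the strain evolved from P5 with mutagenesis, and they were not used. The table holds 10928 probe sets of all kinds. The members are the 5449 genes to which the array annotation gives a probe set under a single gene name. Of these, 114 are read by a probe set whose suffix marks probes shared with other transcripts. The members were picked by that annotation alone, with the probe set of highest mean standing for a gene that has several.

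A yeast cell in must ferments sugar to ethanol through glycolysis. The formation of ethanol regenerates a cofactor that growth without oxygen needs. S. cerevisiae descends from an ancestor whose genome was duplicated, and many of its enzymes therefore come as paralogs, near copies of a gene that are often used under different conditions. Cold makes membranes stiff and translation slow, and yeasts are known to answer with changes in lipid synthesis, in wall mannoproteins and in ribosomal genes.

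Each value is the log2 of a normalized hybridisation signal, so 1 unit is a doubling. A signal depends on how well a probe set binds as well as on the amount of RNA, and it is no level per length of transcript. Ranks are hence ranks of signal, and the order of genes was described and not tested. The size of the probe effect is poorly known here. The 47 genes with more than 1 probe set give 51 pairs, which differed by a median of 1.08 units and by up to 7.02 for YLL066W-B, and 26 pairs lay at least 1 unit apart on all 3 arrays. In 49 of the 51, however, a probe set carries the suffix that Affymetrix gives to probes shared with other transcripts, so these gaps can hold RNA of other genes as well. The 2 pairs without the suffix were 0.31 units apart for PRM7 and 0.055 for EFG1, a gene at the level of the background.

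The arrays were alike, with replicate 1 somewhat apart. Over the genes, Pearson's r was 0.9917 between replicates 1 and 2, 0.9918 between replicates 1 and 3, and 0.9963 between replicates 2 and 3, a description across genes that are not independent. The median SD of a gene was 0.122 units over the 3 arrays, and 0.0787 over 2 arrays, without replicate 1. An SD over 2 arrays is not directly comparable with one over 3. The median difference of a gene between 2 arrays was 0.157 units for replicates 1 and 2, 0.159 for replicates 1 and 3, and 0.111 for replicates 2 and 3. The annotation also gives 1747 probe sets of the array to the fission yeast S. pombe, whose RNA these cells lack. The 95th percentile of their signals served as the background of each array, at 2.28, 2.40 and 2.32 on replicates 1, 2 and 3.

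The parent strain gave a signal for almost every gene on the array. Of the 5449 genes, 5381 (98.8%) lay above background by limma, tested one-sided and adjusted over all genes, and 68 (1.25%) did not. Gene means ran between 0.70 and 12.95 with a median of 7.96, while the S. pombe probe sets had a median of 1.33 and a highest mean of 3.50. Most genes were in the middle of the scale. Between 7 and 9 units lay 2107 genes, between 5 and 7 lay 1341, and between 9 and 11 lay 1380. The ends were thin, with 256 genes over 11 and 100 under 3. Low genes varied more between arrays, with a median SD of 0.156 under 3 units and 0.0785 over 11.

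**Figure D1:**
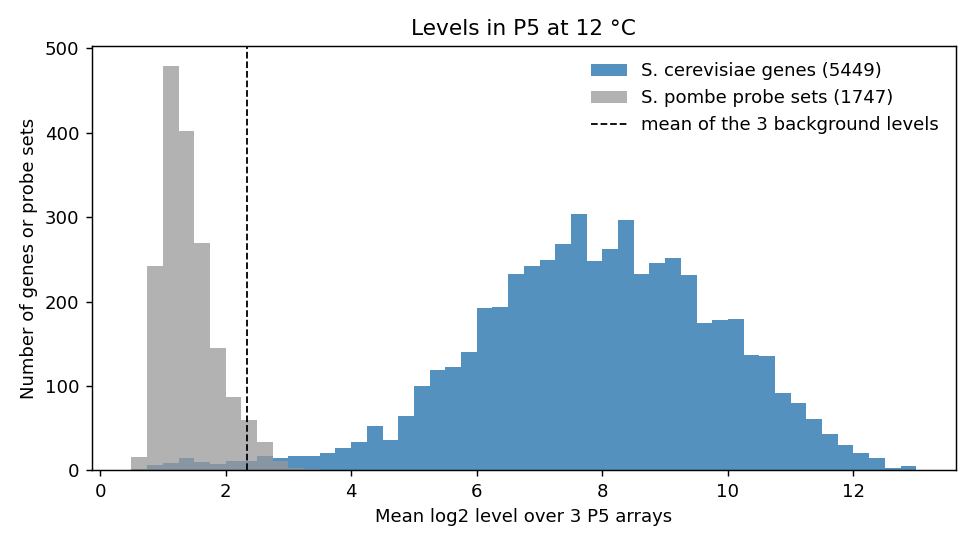
Number of genes or probe sets (vertical axis) by mean log2 level over the 3 P5 arrays (horizontal axis), for 5449 S. cerevisiae genes and 1747 S. pombe probe sets, with the mean of the 3 background levels as a dashed line. The gene median is 7.96 and the S. pombe median 1.33, with a small tail of genes inside the S. pombe range.

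Fermentation enzymes headed the list. The highest signal was that of TEF2, which encodes translation elongation factor EF-1 alpha, at 13.00, 12.91 and 12.93 on replicates 1 to 3. Its probe set carries the suffix for shared probes, and its twin TEF1 has no probe set of its own here. Alcohol dehydrogenase ADH1, the enzyme that makes ethanol, followed at 12.92, 12.92 and 12.96. Then came the glyceraldehyde-3-phosphate dehydrogenase TDH1 at 12.80, 12.85 and 12.94, and the enolase ENO2 at 12.89, 12.82 and 12.81. Each of these 4 genes overlapped on the arrays with the next in order.

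Aldolase FBA1 (12.80 ± 0.04, mean ± SD, n = 3) and the second enolase ENO1 (12.75 ± 0.0029) closed a leading group of 6, which the widest step among the 25 highest genes, 0.17 units, set off. The next was PMA1, the proton pump of the plasma membrane, at 12.49, 12.55 and 12.70. Actin (ACT1, 12.53 ± 0.08) and trehalose-6-phosphate synthase (TPS1, 12.50 ± 0.02) came after it. Trehalose is a storage sugar that protects proteins and membranes. CCW12, a small mannoprotein of the wall, stood at 12.48 ± 0.03.

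The other 15 of the 25 highest ran between 12.22 and 12.46. They held a sulfur transferase (RDL1), a lipid droplet protein (PLN1), the polyamine exporter TPO2, the low-affinity glucose carrier HXT3 at 12.30, 12.42 and 12.50, pyruvate decarboxylase PDC1, the pentose phosphate enzyme GND1, pyruvate kinase CDC19, phosphoglycerate kinase PGK1, the wall glycoprotein YGP1, tryptophan synthase TRP5, the ATP synthase subunit ATP2, the 14-3-3 protein BMH1 and methionine synthase MET6. YNL208W (12.30) and YFL067W (12.26) have no gene name in the tables used, and YFL067W lies among the outermost 10 genes of a chromosome end. In all, 8 of the 25 belong to glycolysis and ethanol formation. Of the 24 steps between neighbours in this order, 22 were smaller than the larger SD of both genes, so the order within the group is not resolved by these arrays.

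**Figure D2:**
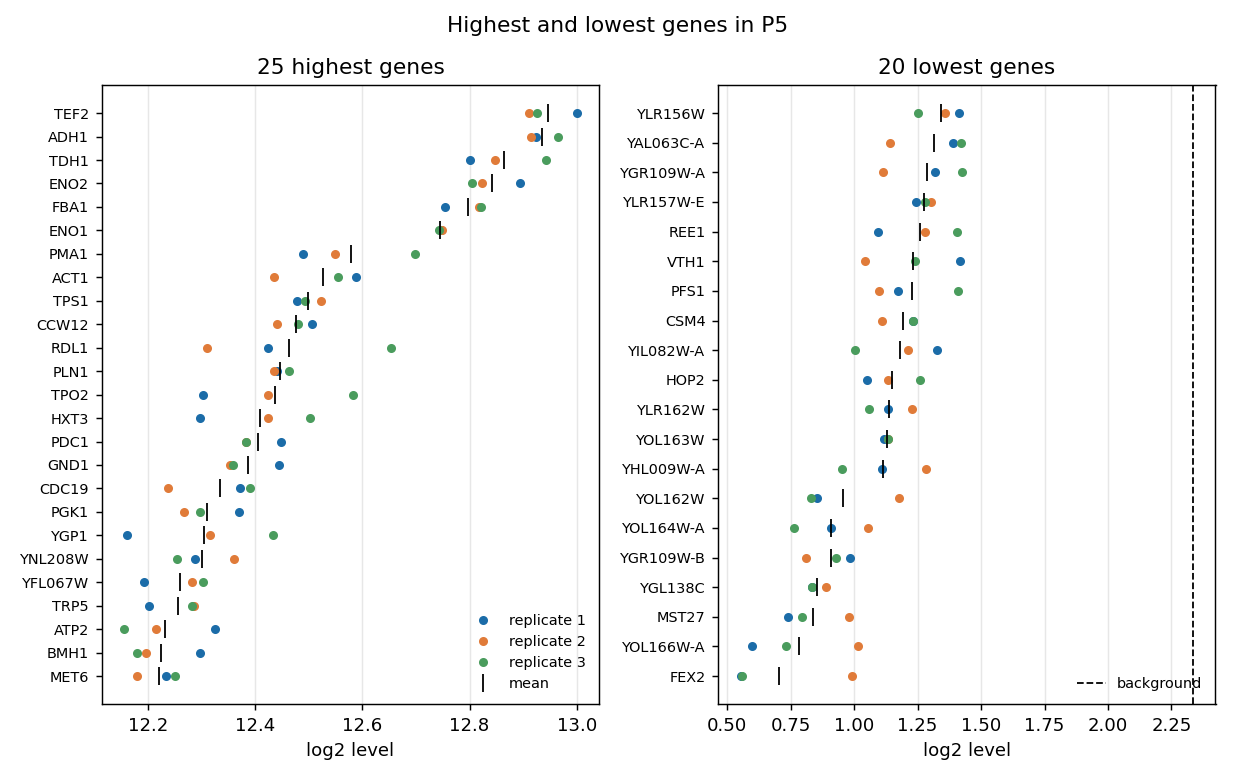
Log2 level on each P5 array (points) and mean (bar) of the 25 highest genes, on the left, and of the 20 lowest, on the right, with the background as a dashed line. The high group spans 12.22 to 12.95. Its neighbours overlap, except FBA1 with ENO1 and ENO1 with PMA1. Every low gene is under background on all 3 arrays.

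The 10 genes nearest the median of 7.96 were ECM22, an activator of sterol genes; RLI1, which recycles ribosomes; MED7 of the Mediator complex; MIG1, the repressor of glucose-repressed genes; the acetyltransferase subunit SAS5; SKG1; VPS62; DDI3; the ion antiporter KHA1; and MIX23. MIG1 was even, at 7.99, 7.94 and 7.95. ECM22 was lowest on replicate 1, at 7.80, 8.02 and 8.06. Deciles give the frame for what follows, since 10% of genes lay under 5.43 and the top 10% over 10.39.

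Glycolysis and ethanol formation had the highest median of the 24 gene lists, 11.73 over 24 genes. All 24 were above the median of all genes, where 50% of genes lie by construction, and 20 were in the top 10% of genes. The members lay between 8.97 and 12.93, and none had an SD over 0.3. Sugar enters by phosphorylation, and there hexokinase HXK1 (11.75 ± 0.13) and glucokinase GLK1 (11.65) were above HXK2 (10.23). Phosphoglycerate mutase GPM1 was at 12.07, 12.08 and 12.14 and TDH3 at 12.20, 12.12 and 12.08. The lowest members were PDC6, PYK2 and ADH2, each a minor or glucose-repressed form, at 8.97, 9.10 and 9.30.

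Hexose carriers differed widely among themselves. HXT3 led them, followed by HXT1, the carrier for high glucose, at 10.75, 11.19 and 11.40, and by HXT7, a high-affinity carrier, at 10.71, 10.91 and 10.77. HXT1 and HXT7 overlapped on the arrays. The probe set of HXT7 has the suffix for shared probes, and its near copy HXT6 was not measured separately. HXT5, a carrier of slow growth, stood at 9.73 ± 0.09 and the glucose sensor RGT2 at 9.36. HXT11 (2.94, 2.10 and 2.45) and HXT13 (2.28, 2.58 and 2.42) did not pass the background test. The 17 measured genes had a median of 6.75, under that of all genes.

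Genes for other sugars were low but mostly detected. GAL7, for galactose-1-phosphate uridylyltransferase, was at 2.08, 2.08 and 1.56, under background on all 3 arrays. Its neighbours in the pathway, GAL10 (4.39 ± 0.28) and galactokinase GAL1 (5.99 ± 0.15), were above background, and the repressor GAL80 was at 9.42 ± 0.04. The maltose permease gene MAL31 gave 8.97, whereas the maltase MAL32 gave 4.02 and the isomaltase IMA5 1.81, not above background. Of 13 measured genes of galactose and maltose use, 11 passed the background test, which 98.8% of all genes passed, and the median was 6.63.

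Respiratory genes were not silent in these fermenting cells. The respiratory chain and ATP synthase list had a median of 9.03 over 39 genes, 7 of them in the top 10%. ATP synthase and succinate dehydrogenase were high, with ATP2 at 12.23, ATP1 at 11.37 and SDH1 at 11.30. Subunits of cytochrome oxidase were lower, with COX4 at 7.59 and COX7 at 4.73 ± 0.27. Genes for growth on nonfermentable carbon had a median of 8.41 over 25 genes. The D-lactate dehydrogenase DLD1 stood out of that list at 11.88, 11.90 and 11.75, while gluconeogenic PCK1 (6.91 ± 0.04) and the activator CAT8 (5.38 ± 0.17) were under the median of all genes.

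Stress and storage genes were high. Of 28 genes of the general stress response, 25 lay over the median of all genes and 15 in the top 10%, and the list median was 10.47. After TPS1 and YGP1 came glycogen phosphorylase GPH1 at 12.16, 12.10 and 12.21, glycerol-3-phosphate dehydrogenase GPD1 at 12.00, 12.02 and 11.99, and HOR7 at 11.75, 12.02 and 12.12. Of the chaperones, HSP12 was at 11.05 ± 0.10 and HSP104 at 9.36 ± 0.13. The lowest were SSA4 (8.40), the Hsp70 gene SSA3 (7.79), DDR2 (7.65 ± 0.32) and SIP18 (7.31).

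Wall genes shared the upper range. The list of wall proteins other than the DAN/TIR family had 20 of 32 members in the top 10% and a median of 11.03. Apart from CCW12 it was led by the stationary-phase mannoprotein SED1 (11.88 ± 0.04), CIS3 (11.80 ± 0.08), UTH1 (11.80) and SIM1 (11.78). Flocculin genes, which make cells stick together, were spread out. FLO11 was at 8.86, 9.25 and 9.41, FLO9 at 6.61 and FLO10 at 6.36, and FLO1 was not above background at 1.40, 1.12 and 1.54. The cold- and anaerobiosis-related DAN/TIR mannoproteins were middling, with a median of 7.82 over 9 genes, led by TIP1 at 11.09, 10.65 and 10.41. The seripauperins, a subtelomeric family of near copies, had a median of 7.05 over 13 genes. Their range was wide, with PAU2 at 9.68 and PAU4 at 2.85, and 3 of the 13 genes (PAU5, PAU17 and PAU23) have a probe set without the suffix for shared probes, so the others cannot be told from their near copies.

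Lipid genes stood above the middle. Of 22 genes of inositol and phospholipid synthesis, 8 were in the top 10% and the median was 9.80. The inositol carrier ITR1 was at 11.97, 12.04 and 12.22, inositol-3-phosphate synthase INO1 at 11.82, 11.79 and 11.92, and the phospholipid methyltransferase OPI3 at 11.43, 11.61 and 11.58. Phosphatidylserine synthase CHO1 gave 11.20 ± 0.07. These 4 genes are textbook targets of the Ino2-Ino4 activator, whose own genes were at 8.98 and 8.83, with the repressor gene OPI1 at 10.66. The inositol monophosphatases INM1 (6.69) and INM2 (6.92) were lowest. The must holds inositol at 2 mg/L, and its effect on these levels was not tested, since the series has no array of P5 in another must.

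Ergosterol synthesis had 23 of 25 genes over the median of all genes and a list median of 9.70. HMG2, an HMG-CoA reductase, led at 11.59 ± 0.06, with squalene synthase ERG9 at 10.97 ± 0.12. The list of hypoxic genes, drawn up for genes induced when oxygen is scarce, had a median of 7.95 over 24 genes, close to that of all genes. Its highest member was the cyclophilin gene CPR1 (12.05 ± 0.07), which is not taken here as a known hypoxic gene although the median counts it. The fatty acid desaturase OLE1 (11.74, 11.69 and 11.65) was high, whereas AAC3 (6.40), DAN1 (5.97) and SUT1 (4.94) were low.

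Nutrient genes lay mostly above the middle, with lower members in each list. Over the median of all genes lay 16 of 26 nitrogen catabolite repressed genes and 14 of 20 phosphate starvation genes. So did 20 of 26 genes of zinc, iron and copper uptake and 16 of 23 of thiamine and NAD supply. The ammonium carrier MEP3 was at 11.50, 11.59 and 11.60, and glutamine synthetase GLN1 at 11.42, in a list of nitrogen catabolite repressed genes with a median of 9.16 over 26 genes. GAP1, the general amino acid permease, was at 7.99 ± 0.39, and the asparaginase gene ASP3-1 was not above background at 1.53. Phosphate carrier PHO84 gave 12.00, 11.79 and 11.85 and the sodium-coupled carrier PHO89 gave 3.86 ± 0.05. In the list of zinc, iron and copper uptake, the zinc carrier ZRT1 led at 11.56 ± 0.05 and the siderophore carrier ARN2 was not above background at 1.57. THI4, for the thiazole part of thiamine, reached 11.46 ± 0.07.

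The ribosomal protein genes measured were modest for a group known for abundant transcripts. The 127 cytosolic genes measured had a median of 8.62, with 81 over the median of all genes and 11 in the top 10%. They are not the whole family. Some pairs, such as RPL1A/RPL1B and RPS4A/RPS4B, have a copy without a probe set of its own, and such copies are not among the 127. RPL4A, whose probe set has the suffix for shared probes, was highest at 11.86 ± 0.08 and RPL39 lowest at 5.04, 4.93 and 4.72. The 68 mitochondrial ribosomal genes had a median of 7.61 and none in the top 10%. All 32 proteasome genes lay over the median of all genes, 10 in the top 10%, with a median of 10.17. RNA polymerase II subunits ran between 4.73 for RPC10 and 10.58 for its largest subunit RPO21, around a median of 8.53. Histone genes ranged between 5.04 for HTB2 and 10.13 for HHF1.

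**Figure D3:**
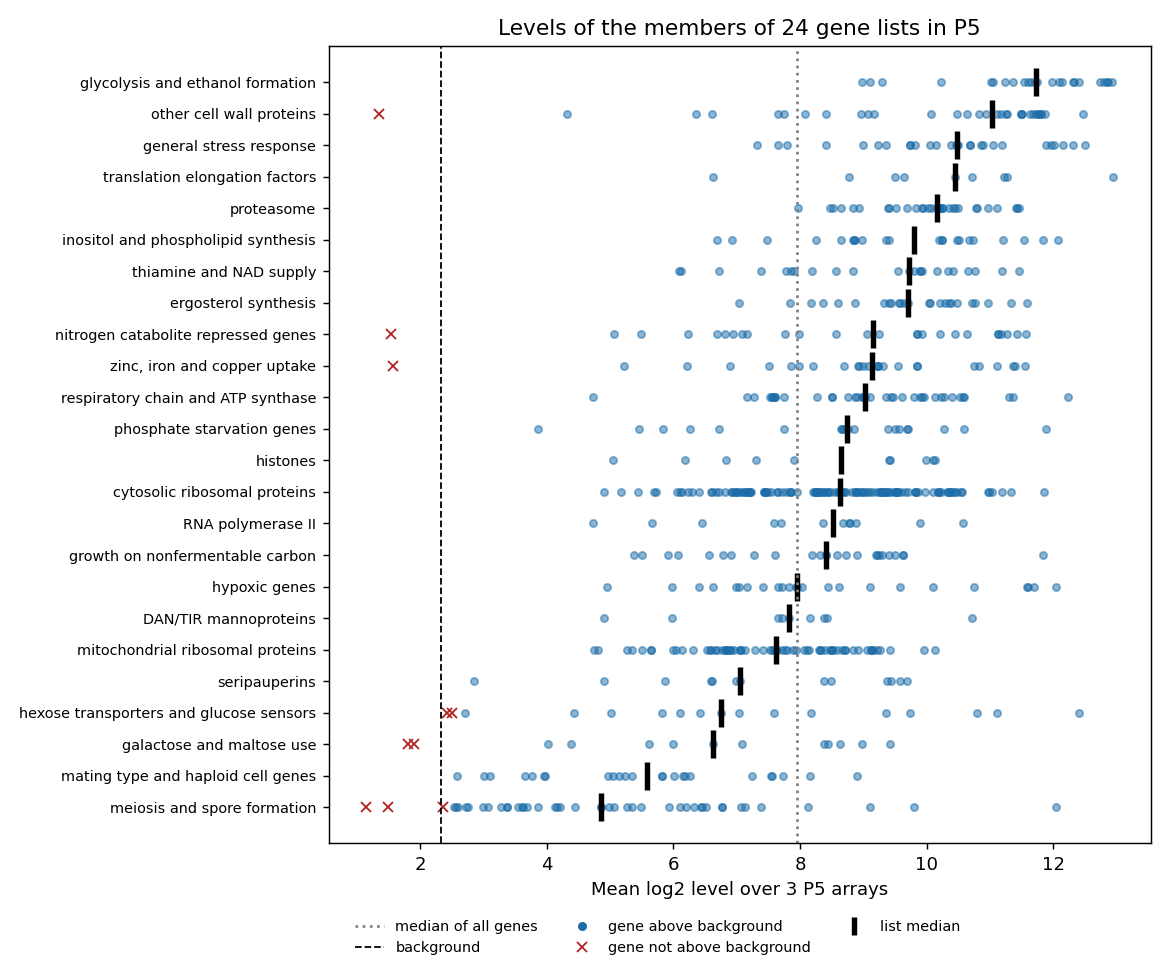
Mean log2 level over the 3 P5 arrays of each measured member of 24 gene lists (points; crosses for genes not above background) and the list median (bar), with the median of all genes and the background as lines. Glycolysis has the highest median, 11.73, and meiosis and spore formation the lowest, 4.86.

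Cell-type genes were low. Of 24 mating-type and haploid cell genes, 2 lay over the median of all genes, FAR1 (8.90 ± 0.22) and the alpha-factor gene MF(ALPHA)2 (8.15 ± 0.14), and the list median was 5.58. STE3, the a-factor receptor of alpha cells, was barely above background at 2.81, 2.46 and 2.45 (adjusted p = 0.0229, limma). The receptor gene STE2 of a cells was at 5.05 ± 0.13, MF(ALPHA)1 at 3.00 ± 0.04, MFA1 at 3.76 ± 0.18 and MFA2 at 3.97 ± 0.08. The mating-type switching endonuclease gene HO and NEJ1 of end joining, both haploid-specific, were at 3.96 and 3.10. Apart from FAR1 and MF(ALPHA)2, the genes named here all lie under the list median of 5.58. A median has as many members over it as under it, so these genes do not stand for the whole list. All 24 were nominally above background, as were 98.8% of all genes. These levels are what the labelled strain gave, and the labels state no ploidy. The study's methods describe a haploid derivative of P5 obtained through sporulation. Whether ploidy bears on these levels was not tested.

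Meiotic genes had the lowest median of the lists, 4.86 over 45 genes, of which 42 passed the background test, against 98.8% of all genes. SPS4 (1.72, 1.42 and 1.33), HOP2 (1.05, 1.13 and 1.26) and SPO11 (2.26, 2.52 and 2.32) did not pass; SPO11 cuts DNA to open recombination. These 3 are members of the list, which does not hold every gene of meiosis or spore formation. Others outside it did not pass either, among them CSM4 (1.19), PFS1 (1.23) and SAE3 (2.45). How many outside it passed was not counted. The inducer of meiosis IME1 was at 3.61 ± 0.10 and the activator NDT80 at 5.07 ± 0.15. One gene of this list was very high: GSC2, a glucan synthase subunit used in spore walls and under wall stress, at 12.00, 12.08 and 12.06. SPS19 (9.79) and SPS100 (9.10) were also over the median of all genes.

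The 68 genes that did not pass the background test had a median level of 1.59. Lowest was FEX2, a fluoride exporter, at 0.55, 0.99 and 0.56, then YOL166W-A at 0.78, MST27 at 0.84 and YGL138C at 0.85. Among the 68, 36 (52.9%) have a gene name other than their locus tag, against 90.8% of all genes. The count includes LSM8, for a splicing protein that yeast cannot live without, at 2.73, 2.28 and 2.15. A signal at background thus does not show that a transcript was missing. Genes near the limit were few. Just above it lay MAM1, a meiotic kinetochore gene, at 2.50 (adjusted p = 0.0333, limma), and just below it HXT11 at 2.50 (adjusted p = 0.161) and SAE3 at 2.45 (adjusted p = 0.0789).

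Genes without signal were often at the ends of chromosomes. Of the 67 with a known place, 21 (31.3%) were among the outermost 10 genes of a chromosome end, against 4.32% of all 5446 placed genes. In the outermost 5 places 13 of 98 genes (13.3%) did not pass, in places 6 to 10 8 of 137 (5.84%), and from place 41 inwards 40 of 4317 (0.927%). The median level was 6.74 in the outermost 5 places and 7.97 from place 41 inwards. If genes without a probe set in use are skipped, genes that did not pass followed each other in 10 runs with 27 genes. The longest had 5 each: ASP3-1, YLR156W, YLR157W-E, YLR162W and RRT15 on chromosome XII, and YOL166W-A, YOL164W-A, BDS1, YOL163W and YOL162W at an end of chromosome XV. A shorter run on chromosome X joined YJL218W, REE1 and IMA5. Whether P5 carries these genes was not tested, since these arrays measured RNA alone. Of the 100 highest genes, 97 had a gene name and 3 lay among the outermost 10.

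Members of a paralog pair often gave unequal signals. Of 86 chosen pairs with both members measured, 46 (53.5%) lay at least 1 unit apart in the same direction on all 3 arrays and 24 (27.9%) at least 2 units. Among 48 pairs of ribosomal protein copies, 24 (50%) and 11 (22.9%) did. In the 32 of these pairs without the suffix for shared probes, the counts were 14 (43.8%) and 5 (15.6%). Of the pairs of probe sets of the same gene, 51% lay 1 unit apart and 29.4% 2 units, but nearly all of those involve shared probes, whereas 83 of the 86 chosen pairs do not. With 2 same-gene pairs free of shared probes, how much of a paralog difference comes from the probes was not tested. The differences within pairs were steady between arrays, with a median SD of 0.130 units.

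**Figure D4:**
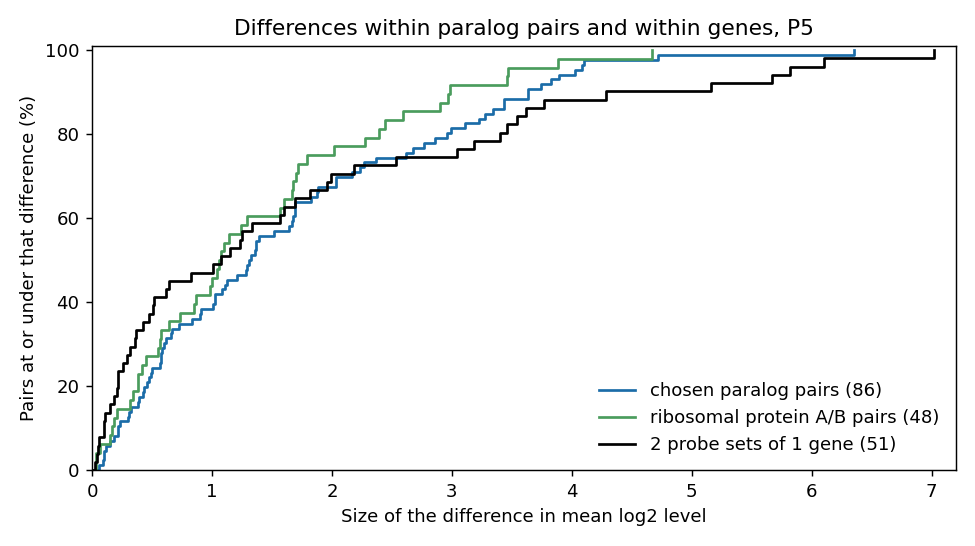
Percent of pairs at or under a given difference in mean log2 level in P5, for 86 chosen paralog pairs, 48 pairs of ribosomal protein copies and 51 pairs of probe sets of 1 gene. The medians are 1.31, 1.07 and 1.08 units. In 49 of the 51 same-gene pairs a probe set has shared probes, as against 3 of the 86 chosen pairs. Of the 48 ribosomal pairs, 32 have no shared probes by the suffix.

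Of 10 pairs in glycolysis and fermentation, 7 lay at least 1 unit apart and 5 at least 2. ADH1 exceeded ADH2, the ethanol-consuming form, by 3.90, 3.40 and 3.61 units on the arrays, PDC1 exceeded PDC6 by 3.38, 3.34 and 3.58, and CDC19 exceeded PYK2 by 3.19, 3.13 and 3.37. GPM1 stood 4.72 ± 0.18 units over GPM2, a copy with little known activity, and phosphoglucomutase PGM2 2.99 ± 0.06 over PGM1. Both enolases were close, with ENO2 over ENO1 by 0.10 ± 0.05, and PDC1 over PDC5 by 0.42 ± 0.03. In hexokinases the order was turned: HXK2, the form linked to high glucose, was under HXK1 by 1.39, 1.66 and 1.51 units. TDH3 was under TDH1 by 0.60, 0.72 and 0.86.

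Carriers showed wide pairs as well, 8 of 9 at least 1 unit apart. The inositol carrier ITR1 exceeded ITR2 by 3.64, 3.94 and 3.90 units, the proton pump PMA1 exceeded PMA2 by 3.28 ± 0.41, the amino acid permease AGP1 exceeded GNP1 by 3.64 ± 0.23, and CAN1 exceeded ALP1 by 3.44 ± 0.03. The drug exporter PDR5 was under PDR15 by 2.37 ± 0.32.

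Aerobic and hypoxic forms gave no common direction. The aerobic copy was higher in HYP2 over ANB1, for translation factor eIF5A, by 4.08 ± 0.07 units, and in PET9 over AAC3, the ATP/ADP carriers, by 3.89 ± 0.14. The hypoxic copy was higher for cytochrome oxidase subunit 5, where COX5A minus COX5B was -0.96, -1.50 and -1.62, and for HMG-CoA reductase, where HMG1 minus HMG2 was -0.76, -0.85 and -0.88. Cytochrome c was close on replicates 2 and 3, with CYC1 over CYC7 by 1.07, 0.18 and 0.05.

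In other families, the mitochondrial citrate synthase CIT1 exceeded CIT3 by 6.36 ± 0.05 units, the widest of the chosen pairs, and peroxiredoxin TSA1 exceeded TSA2 by 4.10 ± 0.12. SUN4 was under its wall relatives SIM1 and NCA3 by 4.03 ± 0.24 and 3.74 ± 0.17. Glucan synthase FKS1 was under GSC2 by 0.66, 0.83 and 0.52. The chaperone gene SSA2 was under SSA1 by 1.69 ± 0.21. The ribosome-bound chaperones SSB1 and SSB2 differed by 0.09 ± 0.05, with a probe set for SSB1 that has the shared suffix. The SSB1 probe set without it gave 10.35, under the 11.86 of SSB2. Of ribosomal copies, RPL4A exceeded RPL4B by 4.67 ± 0.18 and RPS23A exceeded RPS23B by 3.88 ± 0.12. Both A copies were read by probe sets with the shared suffix. The RPS23A probe set without it gave 6.75, under the 7.15 of RPS23B, so that direction depends on the probe set. RPL36A was under RPL36B by 3.47 ± 0.01, with no shared suffix in the pair. For 18 pairs, among them TDH3/TDH2, HXT7/HXT6 and TEF2/TEF1, at least one copy had no probe set of its own.

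The arrays differed most in some groups of genes, and replicate 1 had the highest median in most of the 24 lists. An SD of 0.4 or more was found in 70 genes, and replicate 1 was the array farthest from the middle one in 51 of them, against 9 for replicate 2 and 10 for replicate 3. The mannoprotein genes DAN1 (7.30, 5.43 and 5.18) and TIR1 (9.04, 7.31 and 7.11) varied most. SFG1, a regulator of filamentous growth, was at 8.17, 7.05 and 6.71, and GIT1, which takes up glycerophosphoinositol, at 9.41, 8.40 and 8.13. TIR3 (8.42, 7.53 and 7.18) moved with TIR1, and NOP56 of ribosome assembly gave 5.84, 4.74 and 4.84. YOR338W went the other way at 5.68, 6.98 and 6.99, as did YKL068W-A at 5.53, 6.79 and 6.75. SPG4 was at 6.81, 6.29 and 5.48 and YAL037C-A at 4.51, 3.53 and 3.38. Replicate 1 was thus highest in 8 of these 10 genes.

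Whole lists shared that pattern. Replicate 1 was the highest array for 116 of 127 cytosolic ribosomal genes, 30 of 32 proteasome genes and 20 of 25 ergosterol genes, against 43.9% of all genes. The list medians on replicates 1 to 3 were 8.86, 8.49 and 8.47 for ribosomal genes, 10.30, 10.07 and 10.09 for the proteasome and 10.19, 9.55 and 9.70 for ergosterol. Among ergosterol genes, the methyl sterol oxidase gene ERG25 (10.19, 9.27 and 9.24) and ERG10 (10.74, 10.03 and 10.11) moved most. DAN/TIR mannoproteins were at 8.38, 7.73 and 7.32. General stress genes ran the other way, with replicate 1 lowest in 15 of 28, against 32.4% of all genes, and medians of 10.26, 10.48 and 10.48. HSP30 was at 10.11, 10.93 and 10.99. Glycolysis, by contrast, moved little, at 11.82, 11.76 and 11.68. No label tells the replicates apart beyond their numbers, and what set replicate 1 apart was not tested.

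**Figure D5:**
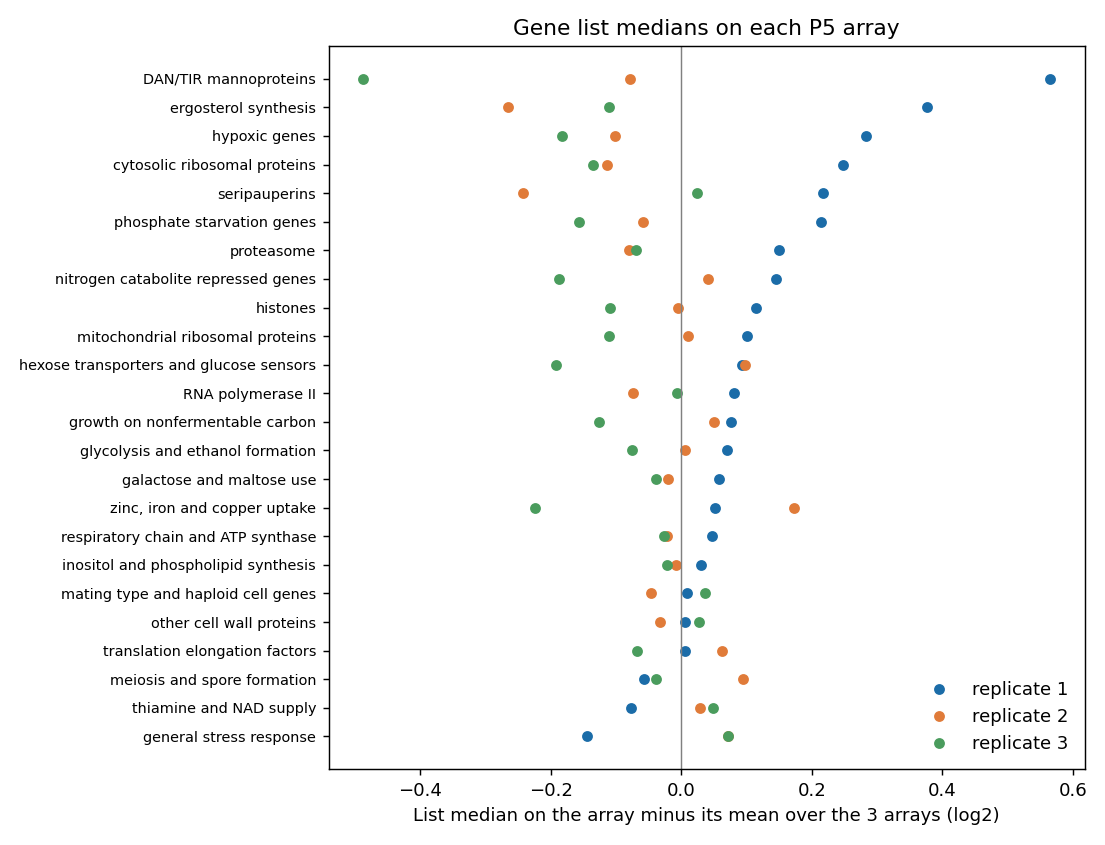
Median log2 level of each gene list on each P5 array minus the mean of its 3 array medians (horizontal axis), one row per list. Replicate 1 has the highest median in most lists. It lies farthest above the others for DAN/TIR mannoproteins, ergosterol synthesis, hypoxic genes and cytosolic ribosomal proteins. Farthest below, it lies for general stress genes, and it is also lowest for thiamine and NAD supply and for meiosis and spore formation.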

How the data were processed

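The table deposited by the authors gives, on the log2 scale, an expression level for each probe set of the Affymetrix GeneChip Yeast Genome 2.0 array. The authors amplified 25 ng of RNA over 17 cycles, made intensity files with GCOS and used RMA in Partek Genomics Suite 6.6, which corrects background, normalizes between arrays and summarises probes, so that the 3 P5 arrays were probably scaled together with the other 3. The P5 columns were used as they stand.

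The annotation gives 5498 probe sets to a single S. cerevisiae gene, 1747 to S. pombe, 213 to controls and none to 3470, which were left out; the symbols of 12 were updated. Of the gene probe sets, 128 carry a suffix for shared probes. Above background means that the log2 level minus the 95th percentile of S. pombe probe sets on that array exceeded 0 by limma 3.58.1 (R 4.3.3; intercept, one-sided, Benjamini-Hochberg over 5449 genes, adjusted p of 0.05 or less). The test was checked on simulated data. All other values are descriptions, with means, SD and ranks over 3 arrays; the number of arrays limits the precision. Gene order came from the RefSeq R64 table, whose coordinates are not given because the build of the array differs or is not named.

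Named genes are the 25 highest, 10 nearest the median, 20 lowest, 10 of largest SD above background, the highest and lowest 4 of each list and the listed pairs; other list members and SAE3, LSM8, YJL218W, BDS1, RRT15 and MAM1 were named after their values were seen. The genes, lists and pairs were chosen with earlier results of these data known. Sequences, and pairs found by protein similarity, were not used here.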

Additional observations from a re-analysis of the deposited data

How the results depend on the processing

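The count of genes above background lay between 5307 and 5390 over 11 alternatives (the 99th or 90th percentile, no test, an intensity trend, quantile or median scaling, the lowest probe set, no shared probe sets, and each array left out), and the count not above between 59 and 98. Between 24 and 25 of the 25 highest genes were kept, the lists with a median over that of all genes numbered 16 to 18, and 27.8% to 32.8% of genes without signal lay among the outermost 10. Paralog pairs at least 1 unit apart numbered 70 of 134, and 35 at 2 units; the other alternatives gave 69 to 76. The median SD lay between 0.0787 and 0.112 with an array left out, and the lowest value was without replicate 1. No paired analysis was possible because only P5 enters, with nothing to pair its replicates with. Pairs by protein similarity, promoter motifs and protein lengths were not run. Signals near the background limit the order of the lowest genes.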

Other observations

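Of the 3470 probe sets that the annotation does not list, 313 lay over the background on all 3 P5 arrays, against 53 of the 1747 S. pombe probe sets. Which transcripts they measure is not known from the tables used here. Their highest signals on the arrays were 13.01, 12.92 and 13.00.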
